A study of Mus musculus with 3 samples.

Results

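ATF4 is a basic leucine zipper (bZIP) transcription factor that switches on genes for amino acid uptake, amino acid synthesis and stress adaptation. Here 34 mouse genes associated with ATF4 in the literature are described, chosen by gene symbol, and all 34 were found among the 21899 symbols of the expression table. The choice, like that of the further lists, was made with earlier results of these data known. Background shares set beside member counts are therefore descriptive and no independent support. The genes were measured by RNA sequencing in MIN6, an insulin-secreting line derived from a mouse insulinoma. MIN6 is widely taken to stand for beta cells of the pancreas. Each of 3 groups held 1 library: MIN6 cells transfected with an siRNA against Srsf1 (siSRSF1, also labelled siASF), with an siRNA against Srsf2 (siSRSF2, also labelled siSC35), or with a negative control siRNA (siNC). SRSF1 and SRSF2 are SR proteins, which bind RNA and promote pre-mRNA splicing, and the series asks how the transcriptome of these cells differs when either is targeted. The labels give no time after transfection, no siRNA sequence and no further treatment, and every group shares the transfection.

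The pathway starts at eIF2, the factor that brings the initiator tRNA to the ribosome. Kinases that sense amino acid shortage (GCN2), unfolded proteins in the endoplasmic reticulum (PERK), double-stranded RNA (PKR) or haem deficiency and mitochondrial stress (HRI) phosphorylate eIF2, which lowers general translation but raises translation of the Atf4 mRNA through its upstream open reading frames. ATF4 then pairs with other bZIP proteins, among them C/EBP family members, and binds composite elements in its target genes. Beta cells make large amounts of secreted protein and depend on this response, and loss of PERK causes diabetes in mice. The RNA level of Atf4 is therefore not a measure of its protein, which was not measured here.

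With 1 library per group, no test between groups was possible and no difference has a replicate check. Levels are given as CPM, the read count scaled to the size of the library, and ratios carry a 95% interval that covers counting error of these libraries only. Genes with 20 or more reads in the higher library of a pair were compared. A difference of 2-fold or more whose interval did not include 1 was called higher or lower. Totals were 14682576 reads in siSRSF2, 14478045 in siSRSF1 and 12688334 in siNC, and 3 reads equal a CPM of 0.200 in siSRSF2, 0.209 in siSRSF1 and 0.239 in siNC. The targeted genes were lower in their own libraries: Srsf2 had a ratio of 0.343 (0.308 to 0.381) in siSRSF2 over siNC, and Srsf1 had 0.683 (0.652 to 0.716) in siSRSF1 over siNC. The target was thus reduced less in siSRSF1 than in siSRSF2. Srsf1 also lay below siNC in siSRSF2, at 0.847 (0.811 to 0.884), and its siSRSF2 over siSRSF1 ratio was 1.24 (1.18 to 1.30). Srsf2 stood at 0.957 (0.884 to 1.04) in siSRSF1 over siNC. The beta-cell markers Ins1, Ins2 and Pdx1 were abundant in every library, while of 26 markers of other islet, acinar, ductal, fibroblast, endothelial and immune cells, 17 were at 0 in siSRSF2, 13 in siSRSF1 and 13 in siNC. The summed level of these 26 markers was 175.8 CPM in siSRSF2, 229.9 in siSRSF1 and 170.3 in siNC. Most of it came from the alpha-cell hormone gene Gcg, with 2029 reads in siSRSF2 (135.5 CPM), 2016 in siSRSF1 (140.7 CPM) and 1494 in siNC (118.9 CPM), and the delta-cell hormone gene Sst had 199 reads in siSRSF2, 339 in siSRSF1 and 262 in siNC. In siSRSF1 the ductal keratin Krt7 (659 reads, against 282 in siNC) and the macrophage marker Cd68 (232 reads, against 56 in siNC) were called higher (Krt7 at 2.05, or 1.98 after GC correction), and their part in the siSRSF1 ratios was not tested. Other markers of duct and immune cells were near absent in siSRSF1: Krt19 had 1 read, Sox9 0, Ptprc 1, Adgre1 0 and Cd3e 0. Of the beta-cell markers, Slc2a2, which encodes the glucose transporter GLUT2, was low, with 7 reads in siSRSF2, 114 in siSRSF1 and 42 in siNC. Over siNC it was called lower in siSRSF2 (0.149) and higher in siSRSF1 (2.37). Mafa was called higher in siSRSF1 (2.47, or 1.76 after GC correction) and Nkx6-1 in siSRSF2 (2.10, or 1.88). Iapp stood at 0.722 in siSRSF2 and 0.821 in siSRSF1, and Neurod1 at 0.821 and 0.803. Of 10 beta-cell markers, 2 were called higher in siSRSF1, against 2.4% of all compared genes. In siSRSF2, 1 was called higher and 1 lower, against 2.51% and 1.04%. In bulk RNA, fewer cells with a transcript and less of it per cell cannot be told apart.

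Slc7a11, Atf3 and 5 other members carry the core of the C/EBP-ATF composite element in the 250 bases before a start site, which is why these sequences are shown. The letters searched were TGATGNAA on both strands, in RefSeq promoters of GRCm38.p6, which held 29 of the 34 members. The core was found in 7 of these 29 genes (24.1%), against 1056 of 27025 genes with a promoter (3.91%). Each site is printed in the orientation of the core, with the core in capitals and its flanks in lower case.
Slc7a11, first site, chr3:50443661-50443690: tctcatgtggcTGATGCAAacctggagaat
Slc7a11, second site, chr3:50443642-50443671: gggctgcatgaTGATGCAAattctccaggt
Atf3, chr1:191183425-191183454: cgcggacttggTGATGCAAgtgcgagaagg
Chac1, chr2:119351038-119351067: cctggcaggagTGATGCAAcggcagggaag
Nupr1, chr7:126625562-126625591: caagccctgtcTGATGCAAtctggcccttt
Asns, chr6:7693214-7693243: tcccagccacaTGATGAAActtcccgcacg
Vldlr, chr19:27216809-27216838: gctaggagcgcTGATGCAActattgctgct
Pycr1, chr11:120643833-120643862: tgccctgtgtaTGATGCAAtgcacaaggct

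The core read TGATGCAA in every site but that of Asns, which read TGATGAAA. The 7 genes did not share a response. In siSRSF2 over siNC their ratios ran from 3.11 for Slc7a11 and 2.57 for Atf3, through 1.67 for Vldlr, 1.58 for Chac1, 1.37 for Nupr1 and 1.26 for Asns, to 0.853 for Pycr1. Called genes such as Trib3, Cebpb and Slc1a4 lacked these letters in this window, which says nothing of other positions. The cyclic AMP response element (TGACGTCA) was found in 1 of the 29 genes, Ppp1r15a, against 1.77% of all genes with a promoter. The endoplasmic reticulum stress response element was found in 0 of the 29 genes and in 0.130% of all genes with a promoter. At so low a share, its absence does not set the members apart. It was found in 8 of 18 genes of the ATF6 and XBP1 arms of the unfolded protein response. Slc7a11 holds its pair of cores on opposite strands within a short stretch, so its 250 bases (GRCm38.p6, chr3:50443614-50443863, minus strand) are given with both cores in capitals, followed by those of Atf3 (chr1:191183334-191183583, minus strand).
Slc7a11: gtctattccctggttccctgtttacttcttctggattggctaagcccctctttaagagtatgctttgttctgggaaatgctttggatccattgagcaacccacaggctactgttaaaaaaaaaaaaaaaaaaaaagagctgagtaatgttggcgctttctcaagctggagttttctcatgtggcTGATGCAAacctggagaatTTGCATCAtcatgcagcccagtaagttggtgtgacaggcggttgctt
Atf3: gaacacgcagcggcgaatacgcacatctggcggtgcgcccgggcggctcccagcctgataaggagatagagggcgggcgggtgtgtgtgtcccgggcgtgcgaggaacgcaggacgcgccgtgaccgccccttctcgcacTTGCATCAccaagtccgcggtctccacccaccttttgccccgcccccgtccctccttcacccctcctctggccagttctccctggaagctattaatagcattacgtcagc

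In the siSRSF2 library the 34 genes lay above siNC nearly throughout, whereas in the siSRSF1 library they were spread around siNC. Together they took 0.862% of the reads in siSRSF2, 0.565% in siSRSF1 and 0.549% in siNC. Of the 33 members compared (Stc2 had too few reads), 31 had a ratio above 1 in siSRSF2 over siNC, all with an interval above 1, and Atf4 and Pycr1 were the exceptions. The median log2 ratio was 0.72, against 0.020 over all 11611 genes compared, of which 28.1% had an interval above 1. By the 2-fold rule 8 of 33 members were called higher, against a background of 2.51% of all compared genes, and 0 were called lower, against 1.04%. At 1.5-fold, 22 of the 33 were called higher and 0 lower, against 7.22% and 4.3% of all compared genes. The intervals of Atf4 and Pycr1 lay below 1, where those of 25.4% of all compared genes did.

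In siSRSF1 over siNC the median log2 ratio of the same 33 genes was 0.07, against 0.0034 over 11602 genes. The interval lay above 1 for 16 members and below 1 for 8, where 27.2% and 25.5% of all compared genes did so. By the 2-fold rule 1 member, Cebpb, was called higher, against a background of 2.4%, and 0 were called lower, against 1.2%. At 1.5-fold 6 were called higher (Cebpb, Atf3, Cbs, Cth, Slc6a9 and Eif4ebp1) and 1 lower (Slc38a2), against 6.09% and 4.29%. Both siRNA libraries were set against the same siNC library, so these comparisons are not independent. Set directly against each other, siSRSF2 over siSRSF1 gave a median log2 ratio of 0.59, against 0.0054 over all 11705 genes compared. The interval lay above 1 for 29 of 33 members and below 1 for 1, against 29.1% and 29.0% of all compared genes. Of the 33, Slc7a11, Slc1a4 and Trib3 (3 genes) were called higher, against a background of 2.4%, and 0 were called lower, against 1.96%, and at 1.5-fold 17 were called higher and 0 lower, against 7.61% and 5.78%. The level was highest in siSRSF2 for 29 of the 34 members, in siSRSF1 for 3 and in siNC for 2, where 36.4% of the 11756 genes with at least 20 reads in a library were highest in siSRSF2.

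**Figure D1:**
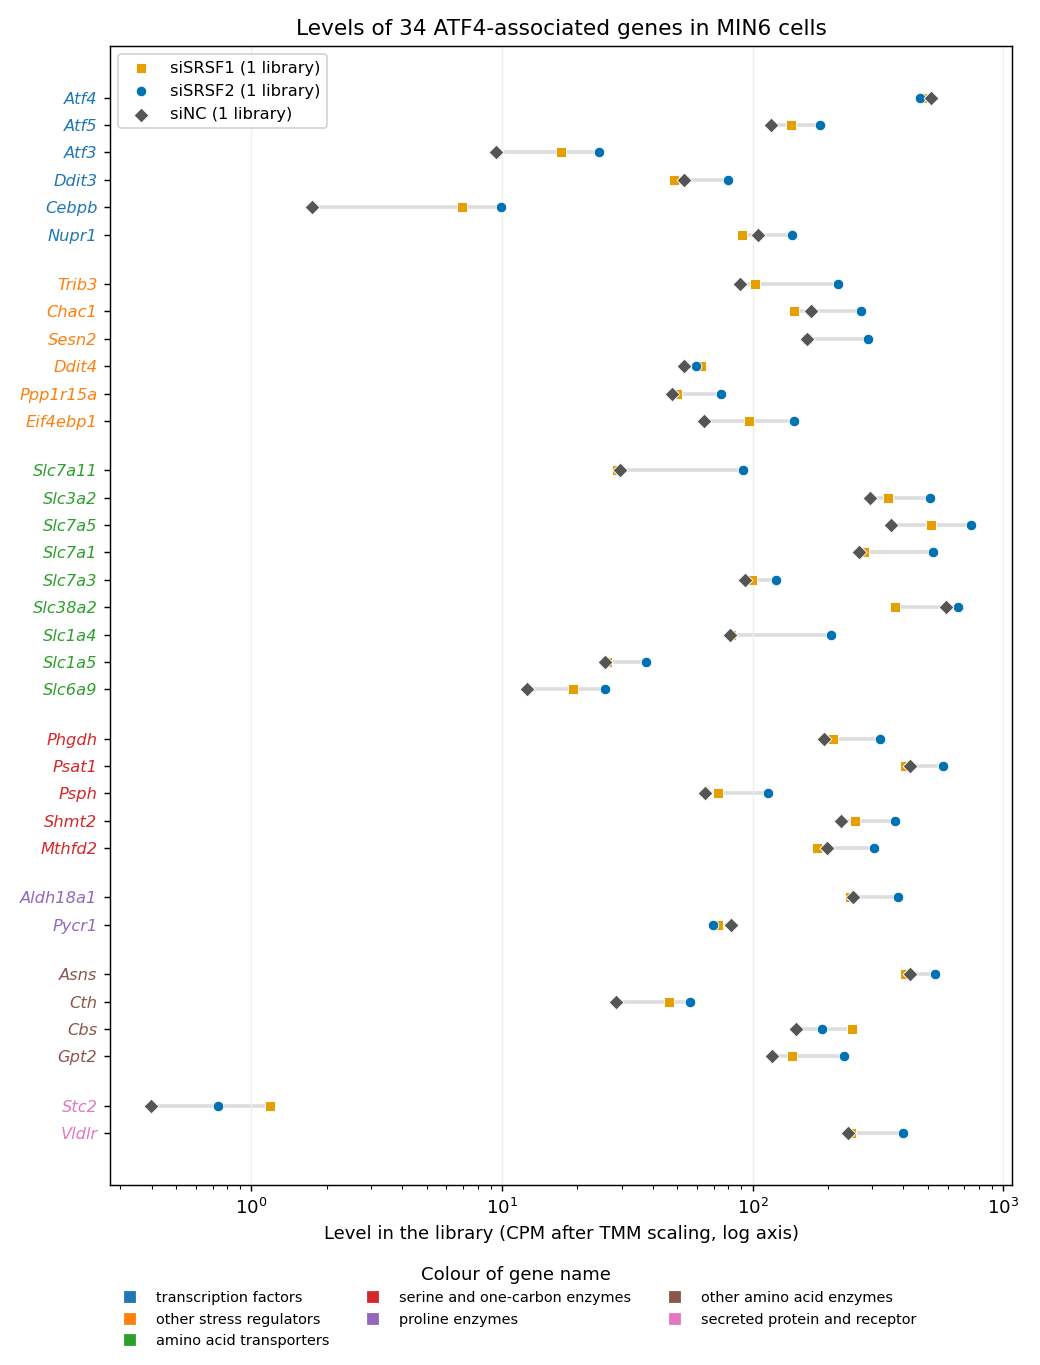
Level of each of the 34 genes in the 3 libraries, in CPM on a log axis, with squares for siSRSF1, circles for siSRSF2 and diamonds for siNC (1 library each) and gene names coloured by role. The siSRSF2 circle is the rightmost symbol for 29 of the 34 genes (36.4% over all genes with at least 20 reads), while Atf4 and Pycr1 have siNC on the right.

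Transcription factors come first, because the response is named for one of them. Atf4 itself (ENSMUSG00000042406, GRCm38 chromosome 15, 80255184 to 80257541) had 465.0 CPM in siSRSF2 (6963 reads), 475.2 CPM in siSRSF1 (6810 reads) and 514.2 CPM in siNC (6463 reads). Both siRNA libraries thus lay slightly below siNC, with a ratio of 0.904 (0.874 to 0.936) in siSRSF2 and 0.924 (0.893 to 0.956) in siSRSF1, and the interval of siSRSF2 over siSRSF1 included 1 (0.979, 0.946 to 1.01). In siSRSF2 the Atf4 RNA thus lay on the other side of siNC from 31 of the 33 compared members. Per length, Atf4 had the highest level of the 34 genes in siNC, with an FPKM of 216.0.

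Atf5, a close relative of ATF4 whose translation is controlled in a like manner, had 185.2 CPM in siSRSF2, 142.0 CPM in siSRSF1 and 118.9 CPM in siNC. Its ratio to siNC was 1.56 (1.46 to 1.66) in siSRSF2 and 1.19 (1.12 to 1.28) in siSRSF1. A correction of all ratios for transcript GC content gave 1.29 and 0.955, so the side on which siSRSF1 lay depended on that correction.

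Atf3 (ENSMUSG00000026628, chromosome 1, 191170296 to 191218039) encodes a stress-induced bZIP factor. It had 365 reads in siSRSF2 (24.4 CPM), 246 in siSRSF1 (17.2 CPM) and 119 in siNC (9.47 CPM). The level was highest in siSRSF2 and lowest in siNC, with a ratio of 2.57 (2.09 to 3.19) in siSRSF2 over siNC, which was called, and of 1.81 (1.45 to 2.28) in siSRSF1 over siNC, which was not.

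Cebpb (ENSMUSG00000056501, chromosome 2, 167688915 to 167690418) encodes C/EBP beta, a bZIP partner of ATF4, and it was the member with the highest ratio in both siRNA libraries. It had 148 reads in siSRSF2 (9.88 CPM), 99 in siSRSF1 (6.91 CPM) and 22 in siNC (1.75 CPM). The ratio to siNC was 5.55 (3.59 to 9.29) in siSRSF2 and 3.89 (2.47 to 6.58) in siSRSF1, and it was called in both. Its transcript has the highest GC content of the members, 67.2%, and GC correction lowered the ratios to 3.77 and 2.56, still past the size rule. The gene shares 312 exon bases with Tmem189, annotated on the other strand (GENCODE M21, chromosome 2, 167642608 to 167689822), and since it is not given whether counting used strand, reads of the overlap cannot be assigned. Tmem189 had ratios near 1, of 0.893 (0.695 to 1.15) in siSRSF2 and 1.02 (0.795 to 1.30) in siSRSF1, over siNC.

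Ddit3, which encodes the pro-apoptotic factor CHOP, had 79.5 CPM in siSRSF2, 48.6 CPM in siSRSF1 and 53.3 CPM in siNC. The siSRSF2 library stood apart here, at 1.49 (1.36 to 1.64) of siNC, while the interval of siSRSF1 over siNC included 1 (0.912, 0.819 to 1.02). Nupr1, a small chromatin-associated stress protein, had 143.6 CPM in siSRSF2, 90.6 CPM in siSRSF1 and 104.6 CPM in siNC. It lay on opposite sides of siNC, with ratios of 1.37 (1.28 to 1.47) in siSRSF2 and 0.866 (0.802 to 0.936) in siSRSF1.

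Among the other stress regulators, siSRSF2 lay above siNC for all 6 genes, 2 of them called, against 52.6% of all compared genes above siNC and 2.51% called higher. Their summed reads gave a ratio of 1.80 (1.75 to 1.85), against 1.05 (1.02 to 1.09) in siSRSF1. Trib3 (ENSMUSG00000032715, chromosome 2, 152337422 to 152344032), a pseudokinase that binds ATF4 and AKT and restrains both, had 219.9 CPM in siSRSF2 (3293 reads), 102.0 CPM in siSRSF1 (1462 reads) and 88.9 CPM in siNC (1118 reads). It was called in siSRSF2 both over siNC, at 2.47 (2.31 to 2.65), and over siSRSF1, at 2.16 (2.03 to 2.29). In siSRSF1 over siNC it stood at 1.15 (1.06 to 1.24).

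Eif4ebp1 (ENSMUSG00000031490, chromosome 8, 27260329 to 27276674) encodes 4E-BP1, which blocks cap-dependent translation when mTORC1 is inactive. It had 146.9 CPM in siSRSF2 (2199 reads), 96.9 CPM in siSRSF1 (1388 reads) and 64.0 CPM in siNC (804 reads). The ratio to siNC was 2.30 (2.12 to 2.49) in siSRSF2 and 1.51 (1.39 to 1.65) in siSRSF1, so this regulator was higher in both libraries.

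Chac1, an enzyme that degrades glutathione, had 271.7 CPM in siSRSF2, 146.3 CPM in siSRSF1 and 171.4 CPM in siNC. It was higher than siNC in siSRSF2, at 1.58 (1.504 to 1.67), and lower in siSRSF1, at 0.853 (0.803 to 0.907). Sesn2, a sestrin that restrains mTORC1 when leucine is scarce, stood at 1.75 (1.66 to 1.84) in siSRSF2, while siSRSF1 and siNC shared a level of 164.8 CPM. Ppp1r15a, which encodes GADD34, the phosphatase subunit that removes phosphate from eIF2, stood at 1.58 (1.43 to 1.74) in siSRSF2 and at 1.05 (0.938 to 1.17) in siSRSF1. Ddit4, the mTORC1 inhibitor REDD1, differed least in this group, with 59.6 CPM in siSRSF2, 62.0 CPM in siSRSF1 and 53.2 CPM in siNC.

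**Figure D2:**
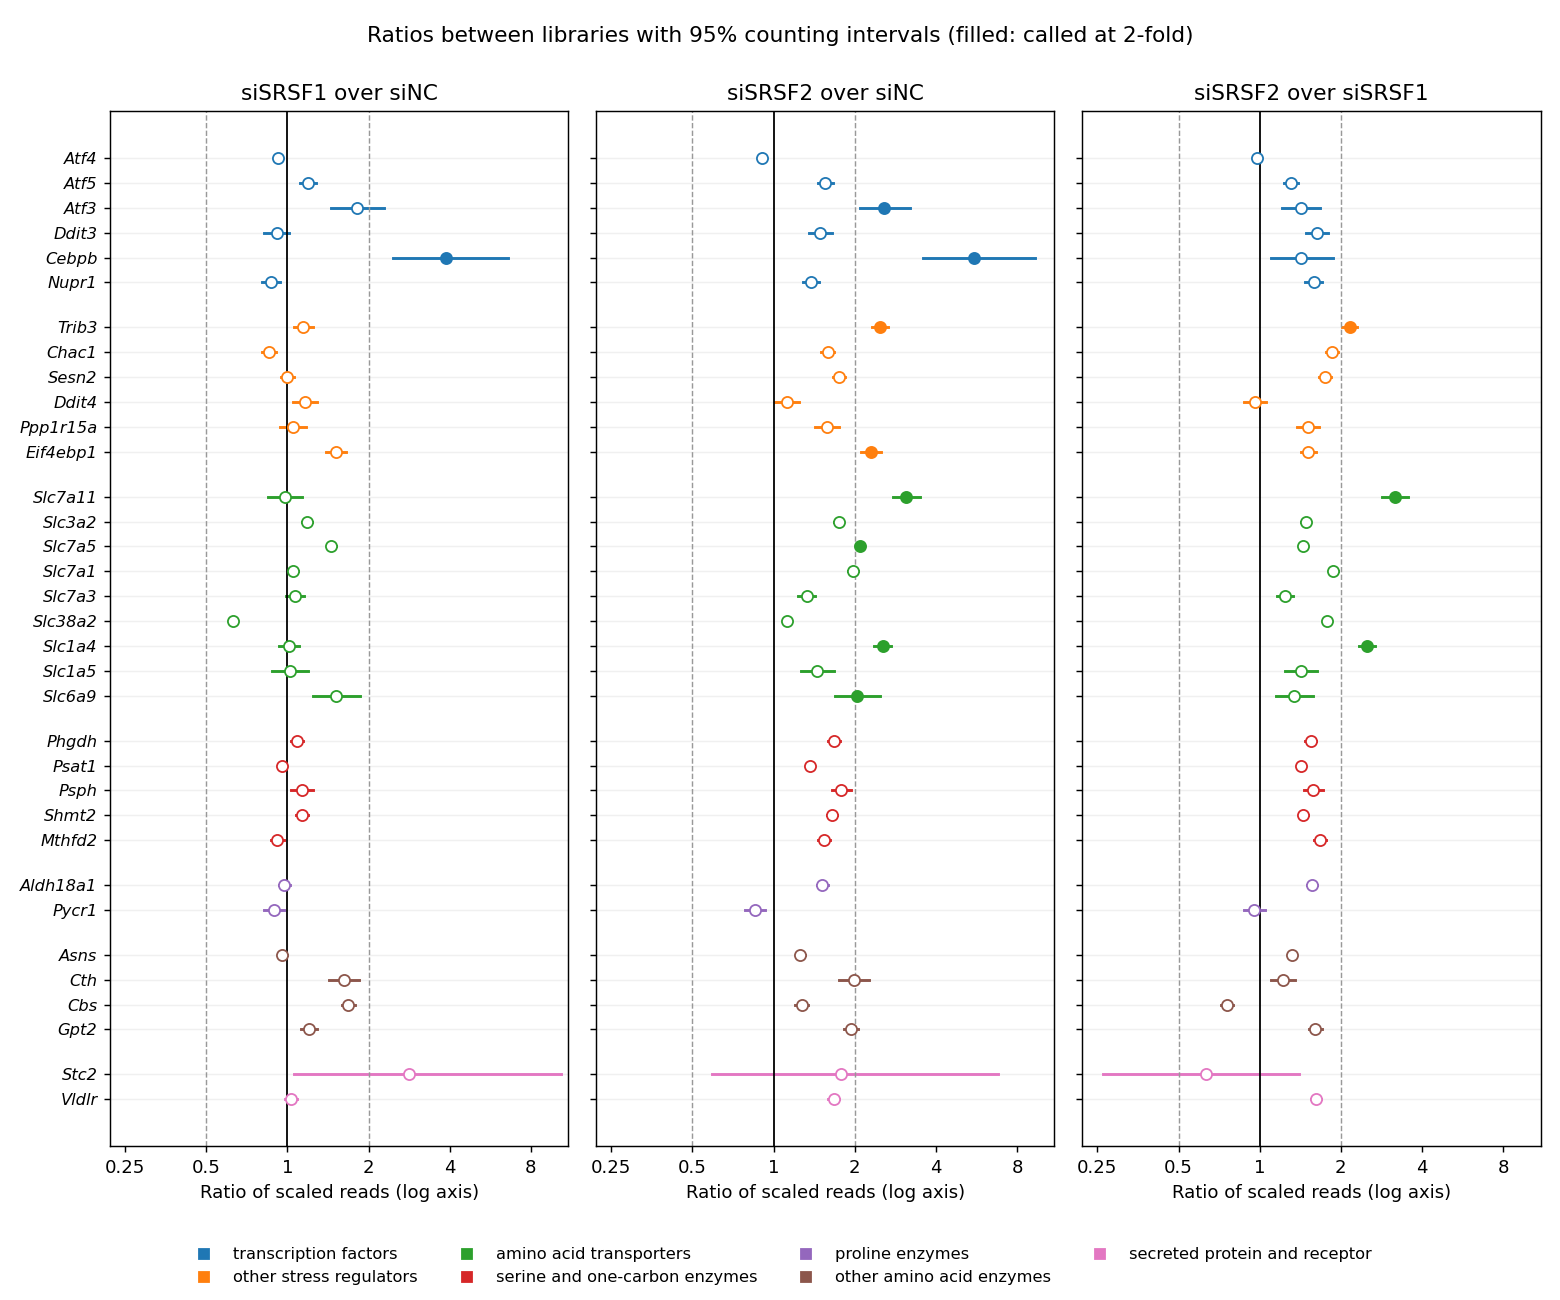
Ratio of scaled reads for each of the 34 genes (Stc2 drawn but not compared) in siSRSF1 over siNC, siSRSF2 over siNC and siSRSF2 over siSRSF1, on a log axis, with 95% counting intervals, coloured by role, and filled where called at 2-fold. In the middle panel 31 of the 33 compared genes lie to the right of 1 and 8 are filled, and in the left panel only Cebpb is filled.

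Amino acid transporters held 4 of the 8 called genes in siSRSF2 over siNC, and all 9 had an interval above 1, against 2.51% of all compared genes called higher and 28.1% with an interval above 1. Their median log2 ratio was 0.98, against 0.72 over all members, and their summed level was 2928 CPM in siSRSF2, 1771 CPM in siSRSF1 and 1749 CPM in siNC. Slc7a11 (ENSMUSG00000027737, chromosome 3, 49892526 to 50443614) encodes xCT, which takes up cystine in exchange for glutamate. It had 1375 reads in siSRSF2 (91.8 CPM), 414 in siSRSF1 (28.9 CPM) and 371 in siNC (29.5 CPM).

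Slc7a11 thus stood apart in the siSRSF2 library alone. The ratio was 3.11 (2.77 to 3.50) over siNC and 3.18 (2.85 to 3.56) over siSRSF1, and the interval of siSRSF1 over siNC included 1 (0.979, 0.849 to 1.13). A stretch of 373 bases in its longest annotated transcript is 95.4% to 96.2% identical to the tubulin genes Tuba1a, Tuba1b and Tuba1c in the antisense direction. Those genes were lower in siSRSF2 than in siNC, with ratios of 0.608, 0.785 and 0.640.

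Slc1a4 (ENSMUSG00000020142, chromosome 11, 20302180 to 20332713) encodes ASCT1, an exchanger of serine, alanine and other small neutral amino acids. It had 3082 reads in siSRSF2 (205.8 CPM), 1176 in siSRSF1 (82.1 CPM) and 1019 in siNC (81.1 CPM). As for Slc7a11, siSRSF1 and siNC lay together (1.01, 0.930 to 1.10), and siSRSF2 was called over siNC at 2.54 (2.36 to 2.73) and over siSRSF1 at 2.51 (2.34 to 2.68). Its relative Slc1a5, which encodes the glutamine carrier ASCT2, had 37.4 CPM in siSRSF2, 26.3 CPM in siSRSF1 and 25.8 CPM in siNC, a ratio of 1.45 (1.26 to 1.67) in siSRSF2 over siNC.

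Slc7a5 (ENSMUSG00000040010, chromosome 8, 121881150 to 121907694) encodes LAT1, which imports leucine and other large neutral amino acids. It had the highest CPM of the 34 genes in both siRNA libraries, 746.1 in siSRSF2 (11171 reads) and 517.1 in siSRSF1 (7411 reads), against 355.8 in siNC (4472 reads). The ratio to siNC was 2.10 (2.03 to 2.17) in siSRSF2, which was called, and 1.45 (1.40 to 1.51) in siSRSF1. Slc3a2, which encodes the CD98 heavy chain that carries both LAT1 and xCT to the membrane, had 512.7 CPM in siSRSF2, 346.7 CPM in siSRSF1 and 294.4 CPM in siNC. It followed the order of Slc7a5 with smaller ratios to siNC, at 1.74 (1.67 to 1.81) in siSRSF2 and 1.18 (1.13 to 1.23) in siSRSF1.

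Slc6a9 (ENSMUSG00000028542, chromosome 4, 117834506 to 117875198), the glycine transporter GLYT1, was the last called transporter and lay closest to the size rule. It had 385 reads in siSRSF2 (25.7 CPM), 274 in siSRSF1 (19.1 CPM) and 158 in siNC (12.6 CPM). The ratio to siNC was 2.04 (1.70 to 2.48) in siSRSF2 and 1.52 (1.25 to 1.86) in siSRSF1, and GC correction ended the call at 1.92. On the other strand it overlaps Ccdc24, which had at most 1 read in any library. Just outside the rule lay Slc7a1, the cationic amino acid transporter CAT1, with 523.3 CPM in siSRSF2, 279.2 CPM in siSRSF1 and 266.1 CPM in siNC, a ratio of 1.97 (1.89 to 2.05). Slc7a3, another cationic amino acid transporter, stood at 1.33 (1.23 to 1.43) in siSRSF2 over siNC.

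Slc38a2, which encodes SNAT2, a sodium-coupled carrier of small neutral amino acids that cells raise when starved of them, behaved unlike the other transporters. It had 9909 reads in siSRSF2 (661.8 CPM), 5328 in siSRSF1 (371.8 CPM) and 7424 in siNC (590.6 CPM). In siSRSF1 it had the lowest ratio of all members, 0.629 (0.608 to 0.652), while siSRSF2 lay just above siNC, at 1.12 (1.09 to 1.15). Its siSRSF2 over siSRSF1 ratio of 1.78 (1.72 to 1.84) thus came mainly from the low level in siSRSF1.

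Serine is made from a glycolytic intermediate by PHGDH, PSAT1 and PSPH, and SHMT2 and MTHFD2 pass its side chain into the mitochondrial folate pool. All 5 genes had an interval above 1 in siSRSF2 over siNC, within a narrow range from 1.36 to 1.79, and none was called. Of all compared genes, 28.1% had an interval above 1 and 2.51% were called higher. Their summed reads gave a ratio of 1.53 (1.499 to 1.56) in siSRSF2 and 1.02 (0.994 to 1.04) in siSRSF1. Psph had 115.4 CPM in siSRSF2, 72.9 CPM in siSRSF1 and 64.6 CPM in siNC, a ratio of 1.79 (1.64 to 1.94) in siSRSF2, the highest of the group.

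Psat1 had the lowest ratio of the serine genes in siSRSF2, with 577.2 CPM in siSRSF2, 404.8 CPM in siSRSF1 and 424.0 CPM in siNC, a ratio of 1.36 (1.32 to 1.41). Phgdh stood at 1.68 (1.598 to 1.76) in siSRSF2 and 1.09 (1.03 to 1.15) in siSRSF1, Shmt2 at 1.64 (1.57 to 1.72) and 1.13 (1.08 to 1.19), and Mthfd2 at 1.54 (1.46 to 1.61) and 0.917 (0.868 to 0.969). GC correction put the siSRSF1 ratio of Phgdh at 0.976, so its side of siNC depended on that correction. Phgdh shares stretches of at least 200 bases and 95% identity with 9 other annotated genes that have no line of their own in the table, so its count is uncertain. Psph shares 452 exon bases with Cct6a on the other strand, and Cct6a stood at 0.897 (0.842 to 0.954) in siSRSF2 over siNC.

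Proline synthesis was split between its enzymes. Aldh18a1, which encodes the enzyme of the first committed step, had 382.1 CPM in siSRSF2 (5721 reads), 245.3 CPM in siSRSF1 (3515 reads) and 251.6 CPM in siNC (3163 reads). Pycr1, which encodes the mitochondrial reductase of the last step, had 69.8 CPM in siSRSF2 (1045 reads), 73.0 CPM in siSRSF1 (1046 reads) and 81.9 CPM in siNC (1029 reads). Aldh18a1 was higher in siSRSF2, at 1.52 (1.45 to 1.59), and at 0.975 (0.929 to 1.02) in siSRSF1, while Pycr1 lay below siNC in both, at 0.853 (0.781 to 0.930) in siSRSF2 and 0.892 (0.817 to 0.973) in siSRSF1. Pycr1 holds the composite core printed above and was, in siSRSF2 over siNC, the lowest of the 33 members compared.

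Of the other amino acid enzymes, Asns encodes asparagine synthetase, which makes asparagine from aspartate and glutamine. It had 534.1 CPM in siSRSF2 (7998 reads), 406.5 CPM in siSRSF1 (5825 reads) and 424.5 CPM in siNC (5336 reads). The ratio to siNC was 1.26 (1.22 to 1.30) in siSRSF2, among the smaller ones of the members above 1, and 0.957 (0.922 to 0.994) in siSRSF1. Gpt2, the mitochondrial alanine aminotransferase, had 231.6 CPM in siSRSF2, 143.8 CPM in siSRSF1 and 119.8 CPM in siNC, a ratio of 1.93 (1.82 to 2.05) in siSRSF2.

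The pair of enzymes that turn homocysteine into cysteine had the highest siSRSF1 over siNC ratios among the 11 enzyme genes. Cbs, which makes cystathionine, had 188.4 CPM in siSRSF2 (2821 reads), 249.5 CPM in siSRSF1 (3576 reads) and 148.4 CPM in siNC (1865 reads). It was the only compared member whose siSRSF2 over siSRSF1 interval lay below 1, at 0.755 (0.718 to 0.793), and its ratio to siNC was 1.27 (1.20 to 1.35) in siSRSF2 and 1.68 (1.59 to 1.78) in siSRSF1. Cth, which splits cystathionine to give cysteine, had 56.5 CPM in siSRSF2 (846 reads), 46.2 CPM in siSRSF1 (662 reads) and 28.5 CPM in siNC (358 reads). Both libraries lay above siNC, at 1.98 (1.75 to 2.25) in siSRSF2, just outside the size rule, and at 1.62 (1.42 to 1.85) in siSRSF1.

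Vldlr, a lipoprotein receptor that ATF4 raises under stress of the endoplasmic reticulum, had 400.2 CPM in siSRSF2, 247.2 CPM in siSRSF1 and 239.8 CPM in siNC, a ratio of 1.67 (1.597 to 1.74) in siSRSF2 and 1.03 (0.982 to 1.08) in siSRSF1. Stc2, a secreted stanniocalcin, was nearly silent, with 11 reads in siSRSF2, 17 in siSRSF1 and 5 in siNC, and was not compared.

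**Figure D3:**
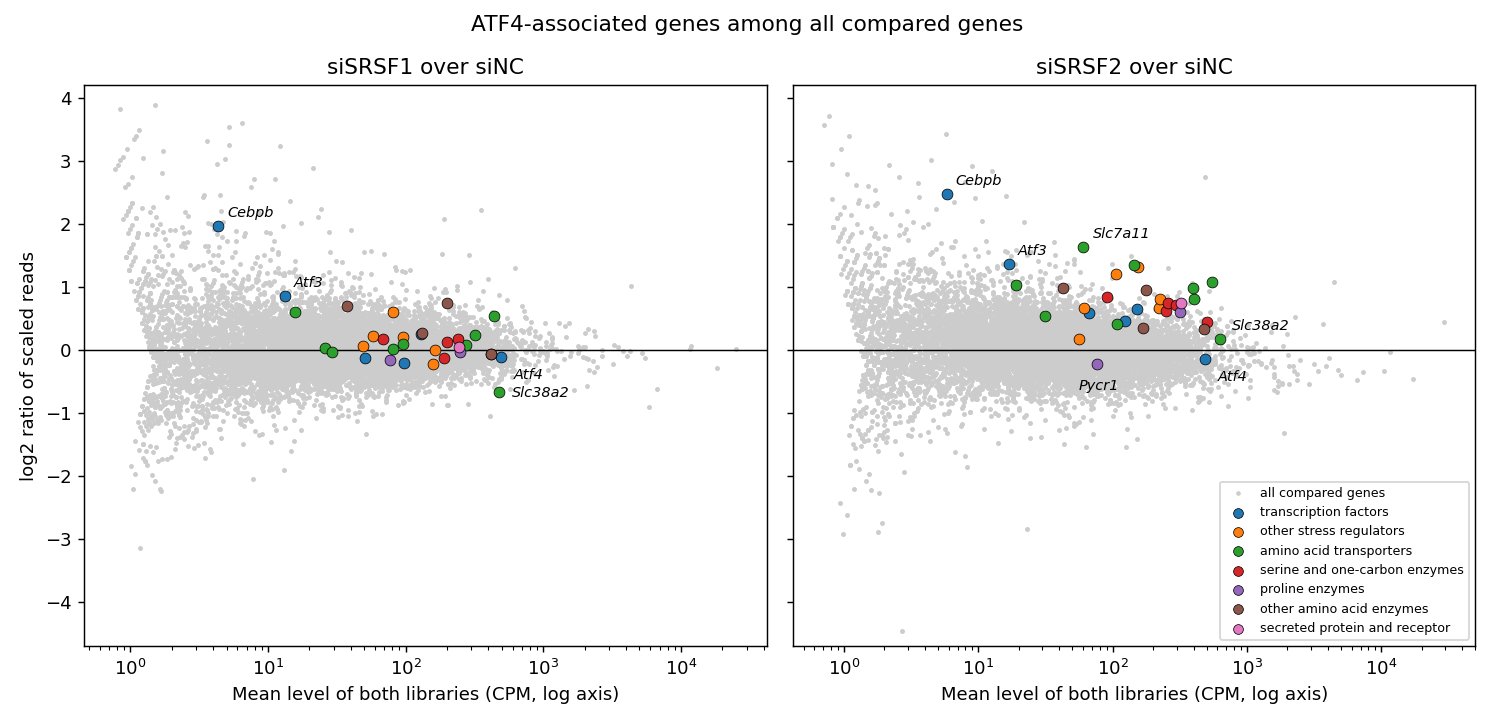
Log2 ratio of scaled reads against the mean level of both libraries (CPM, log axis) for siSRSF1 over siNC and siSRSF2 over siNC, with all compared genes in grey and the 33 compared ATF4-associated genes coloured by role. In siSRSF1 the coloured points straddle 0 with a median of 0.07, and in siSRSF2 they lie above it with a median of 0.72, Atf4 and Pycr1 excepted.

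The compared genes of each role can be set side by side by their median log2 ratio. In siSRSF2 over siNC this was 0.98 for the 9 transporters, 0.72 for the 5 serine and one-carbon genes, 0.66 for the 12 stress regulators (transcription factors included), 0.65 for the 4 other amino acid enzymes and 0.19 for the 2 proline genes. In siSRSF1 over siNC the same groups had 0.07, 0.12, 0.13, 0.48 and -0.10. The order thus differed between the libraries: transporters led in siSRSF2, and the other amino acid enzymes, through Cbs and Cth, in siSRSF1. These medians were taken before GC correction. After it, most serine and one-carbon genes and most stress regulators had a siSRSF1 over siNC ratio below 1, so the sign of those medians was not stable. Among the members, 20 of 34 (58.8%) had their highest level in siSRSF2, their middle level in siSRSF1 and their lowest in siNC, an order shown by 16.4% of the 11756 genes with at least 20 reads in a library. The median transcript GC content of the members was 52.5%, against 49.5% for those genes. The order was taken from the levels alone, whatever the interval. Among the members in that order, the siSRSF1 over siNC interval included 1 for Sesn2, Slc1a4, Slc1a5, Vldlr, Ppp1r15a and Slc7a3. GC correction put that ratio below 1 for Sesn2 (0.871), Slc1a5 (0.926), Atf5 (0.955), Ppp1r15a (0.967), Slc1a4 (0.971) and Phgdh (0.976).

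Levels relative to gene length gave a different view from the ratios. By the FPKM computed by the authors, Slc7a5 (205.2), Atf4 (201.1) and Asns (199.2) led the members in siSRSF2, and Atf4 (216.0), Asns (153.8) and Chac1 (103.8) led them in siNC. Slc7a11 and Cebpb, which had the highest ratios to siNC in siSRSF2, stayed among the lowest by FPKM, at 6.73 and 6.70 in siSRSF2 and at 2.10 and 1.15 in siNC. Only Stc2 and Slc6a9 lay lower than these genes in siSRSF2, at 0.145 and 5.10.

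Other genes of the pathway were compared in the same way. Of 14 genes for the eIF2 kinases, eIF2, eIF2B and a constitutive eIF2 phosphatase subunit, 0 were called in either siRNA library, where 2.51% of all compared genes were called higher and 1.04% lower in siSRSF2, and 2.4% and 1.2% in siSRSF1. The median log2 ratio was -0.01 in siSRSF2 and 0.02 in siSRSF1. The lowest of these in siSRSF2 was Eif2ak3, which encodes the kinase PERK, with 873 reads in siSRSF2, 1250 in siSRSF1 and 1221 in siNC, a ratio of 0.600 (0.550 to 0.655) in siSRSF2 over siNC. Next lowest was Eif2s1, at 0.691 (0.635 to 0.752), and the highest was Eif2s2, at 1.18 (1.12 to 1.26). Eif2ak4, which encodes GCN2, stood at 0.981 (0.850 to 1.13) in siSRSF2 and at 0.728 (0.622 to 0.850) in siSRSF1, over siNC. In siSRSF1 the lowest of the list was Eif2b3, at 0.726 (0.602 to 0.874), followed by Eif2ak4. The highest there was Eif2ak2, which encodes PKR, at 1.30 (1.13 to 1.48).

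Of 14 bZIP genes that can pair with ATF4 or its relatives, 11 were compared and 10 lay above 1 in siSRSF2 over siNC, with a median log2 ratio of 0.73, against 52.6% of all compared genes above 1. The exception was Fosl2, at 0.904 (0.830 to 0.985). The gene at the median was Junb, at 1.66, and GC correction put it at 1.34. Jund moved from 1.69 to 1.15, so the median depended on that correction. The called genes were 2 of the 11, against 2.51%. Cebpd, a C/EBP family member, was called at 3.97 (2.505 to 6.80) on 101 reads in siSRSF2 and 21 in siNC. Jdp2, a repressor of the AP-1 family, was called at 2.10 (1.44 to 3.14), and GC correction put it at 1.98. Cebpg, a preferred partner of ATF4, had 4020 reads in siSRSF2, 1960 in siSRSF1 and 1989 in siNC, a ratio of 1.70 (1.61 to 1.79) in siSRSF2 over siNC and of 1.96 in siSRSF2 over siSRSF1. In siSRSF1 over siNC the median of these bZIP genes was 0.14. Cebpd was called there at 2.43, and Jund at 2.06, a call that GC correction ended at 1.35. These were 2 of 11 genes, against 2.4% of all compared genes called higher.

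Of 17 further genes described as responsive to ATF4, 14 were compared in siSRSF2 over siNC and 11 had an interval above 1, against 28.1% of all compared genes, with a median log2 ratio of 0.35. The called gene was Adm2, the peptide adrenomedullin 2, with 1125 reads in siSRSF2, 496 in siSRSF1 and 353 in siNC, a ratio of 2.67 (2.37 to 3.02). This was 1 of the 14, against 2.51% of all compared genes called higher. The lowest were Slc7a6, at 0.833 (0.748 to 0.928), and Map1lc3b, at 0.855 (0.805 to 0.908). In siSRSF1 0 of the 14 were called, against 2.4% of all compared genes called higher and 1.2% lower, with a median of 0.10. Chaperones and other genes of the ATF6 and XBP1 arms, the remaining branches of the unfolded protein response, mostly lay on the other side in siSRSF2. Of 21 such genes, 16 had an interval below 1 and 3 above, against 25.4% and 28.1% of all compared genes, with a median log2 ratio of -0.38 in siSRSF2 and of -0.06 in siSRSF1. The 3 above were Ern1 (1.33), Herpud1 (1.25) and Atf6 itself (1.08). Called lower, against 1.04% of all compared genes, were 2 of the 21: Manf, a secreted factor of the endoplasmic reticulum, at 0.480, and Dnajb9, a cochaperone of BiP, at 0.482. Xbp1, the spliced transcription factor of that response, stood at 0.624 (0.591 to 0.660) and Hspa5, the chaperone BiP, at 0.693 (0.681 to 0.705) in siSRSF2 over siNC. Most members and most genes of these arms thus lay on opposite sides of siNC in the same library, a difference in position that was not tested.

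**Figure D4:**
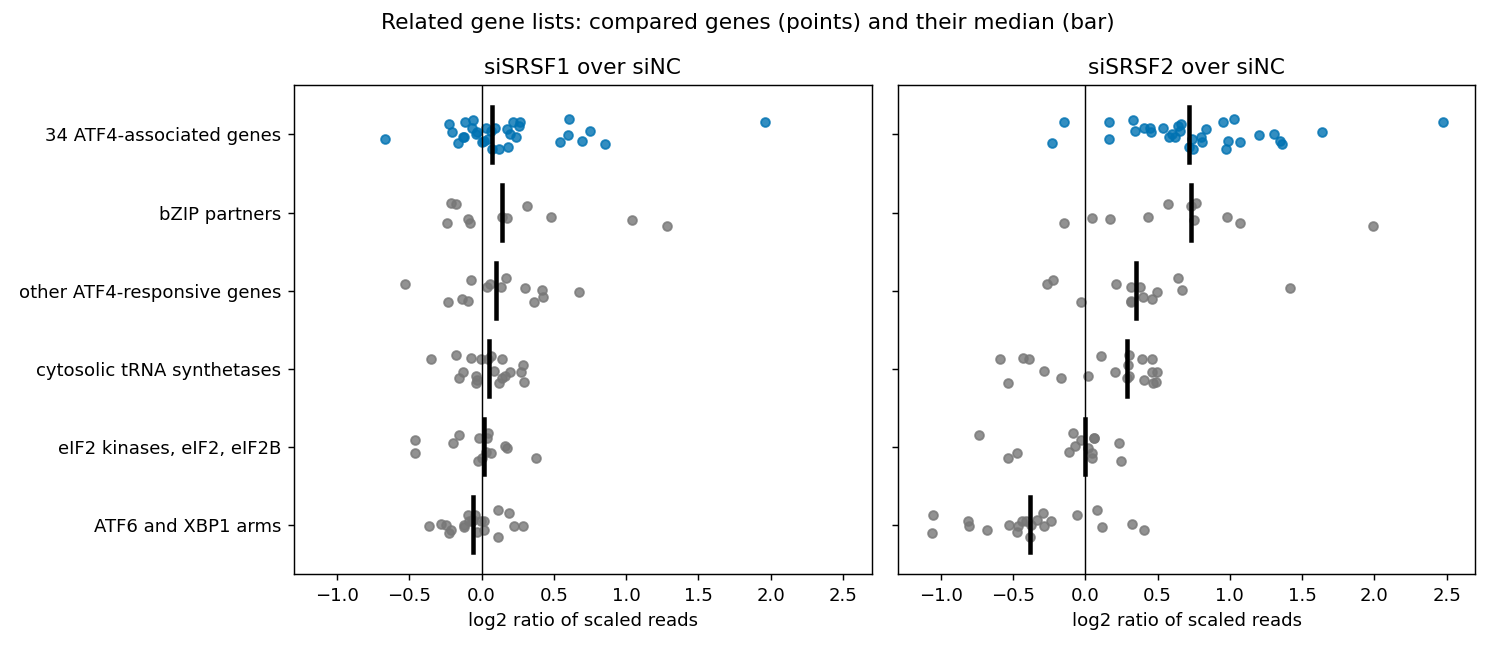
Log2 ratio of scaled reads in siSRSF1 over siNC and siSRSF2 over siNC for the compared genes of 6 lists, with a point per gene and a bar at the median. In siSRSF2 the medians run from 0.72 for the 34 ATF4-associated genes and 0.73 for bZIP partners to -0.38 for the ATF6 and XBP1 arms, and in siSRSF1 they lie between -0.06 and 0.14. All ratios drawn are without GC correction.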

How the data were processed

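RNA from MIN6 cells was sequenced in 3 libraries, 1 per group. The deposited table gives, per the file headers, a read count and an FPKM for each gene and library. The counts are the authors' whole numbers without normalisation. The FPKM, computed by the authors, equals the count divided by table length and column total (largest difference 0.00045%). The submitters' processing notes name Bowtie2 2.4.2 and the mouse build mm10, also called GRCm38. The sources used here do not state the counting tool, its annotation, strand use or how multiply mapped reads were treated. Of 21935 lines, 67 that share a symbol were summed.

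Counts were scaled by TMM (edgeR 4.0.16, R 4.3.3; factors 0.990 for siSRSF1, 1.02 for siSRSF2 and 0.991 for siNC). Ratios used a prior of 0.5 reads and exact Clopper-Pearson intervals (scipy 1.17.1), and were checked on simulated data. The simulated counts held counting error only, as the intervals assume, so the check says nothing of variation between cultures. DESeq2 1.42.0 supplied size factors for an alternative. Transcript GC content (GENCODE M21, longest transcript, 99.5% of symbols) was corrected with lowess (statsmodels 0.14.6, fraction 0.3). Near-identical genes were sought with BLAST at 95% identity over at least 200 bases. All members are named. Further lists are given by genes called over siNC, extremes in siSRSF2 over siNC and a few other genes. The members and lists were chosen with earlier results of these data known.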

Additional observations from a re-analysis of the deposited data

Results flagged for a closer look

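For 6 members the siRNA libraries lay on opposite sides of siNC, each with a counting interval that excluded 1: higher in siSRSF2 and lower in siSRSF1. This was 6 of the 33 members compared, against 442 of 11457 genes (3.86%), and the opposite pattern was shown by 0 members and 4.14% of genes. The difference has no replicate check and was not tested. The direct ratio of siSRSF2 over siSRSF1 was 1.86 for Chac1, 1.78 for Slc38a2, 1.67 for Mthfd2, 1.58 for Nupr1, 1.43 for Psat1 and 1.31 for Asns. Over siNC, Slc38a2 stood at 1.12 in siSRSF2 and 0.629 in siSRSF1, and Chac1 at 1.58 and 0.853. The siSRSF1 ratios of Psat1 (0.955) and Asns (0.957) lay within a few percent of 1. GC correction left all 6 on the same sides, with siSRSF1 over siNC ratios of 0.764 for Chac1, 0.662 for Slc38a2, 0.915 for Mthfd2, 0.862 for Nupr1, 0.969 for Psat1 and 0.981 for Asns. With intervals moved by the same factor, those of Psat1 and Asns in siSRSF1 would include 1, so these genes would no longer be flagged.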

How the results depend on the processing

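Counts called at 2-fold rested on few genes. In siSRSF1 over siNC the 1 member called higher became 2 with no minimum of reads (Stc2 added) and 0 with a minimum of 100 reads, which removes Cebpb, and the 1.5-fold rule gave 6 higher and 1 lower (Slc38a2). The 1.5-fold rule gave 22 higher in siSRSF2 over siNC and 17 in siSRSF2 over siSRSF1. GC correction moved the siSRSF2 over siNC median from 0.72 to 0.62, ended the call of Slc6a9 (1.92) and added Cth (2.02), and plain library totals added Slc7a1 (2.02) and Cth (2.04). In siSRSF1 over siNC, GC correction put Atf5 (0.955) and Phgdh (0.976) below 1, although their uncorrected intervals lay above 1. Of 99 member ratios, GC correction put 24 outside their counting interval and plain totals 1, and median-of-ratios scaling, TMM without the insulin genes, a prior of 2 reads and keeping 1 line per symbol put 0 outside. No called ratio changed direction under the alternatives run. No paired analysis was possible because each group has 1 library. For the same reason no replicate could be left out and the spread between cultures could not be estimated.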

Other observations

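Cytosolic aminoacyl-tRNA synthetases, which charge tRNAs with amino acids, were split in siSRSF2. Of 20 genes, 13 had an interval above 1 over siNC and 6 below, against 28.1% and 25.4% of all compared genes. None was called, where 2.51% of all compared genes were called higher and 1.04% lower. The median log2 ratio was 0.29, against 0.05 in siSRSF1. The highest ratios were those of Aars (1.41, 1.37 to 1.45) and Gars (1.40, 1.35 to 1.45), and the lowest were those of Hars (0.664, 0.610 to 0.723) and Qars (0.690, 0.621 to 0.767). The composite core TGATGNAA was found before a start site of 3 of the 12 synthetase genes with a RefSeq promoter, against 3.91% of all genes with one. These were Aars, Gars and Tars, and Tars stood at 1.23 (1.17 to 1.30).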
